A study of Mus musculus with 6 samples.

Results

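The genes of the NRF2 antioxidant programme and of glutathione and peroxide handling were followed in mouse colonic organoids after 3 days of 4-hydroxytamoxifen (4-OHT) or vehicle. The set holds Nfe2l2 (the gene of NRF2), Keap1, 28 further named genes and every row whose symbol is that of a glutathione transferase of the alpha, kappa, mu, pi, theta, omega or zeta class. It comes to 54 of the 25067 rows of the deposited table, namely 2 regulators, 18 NRF2 targets, 10 peroxide and superoxide enzymes and 24 glutathione transferases. The rule names them by symbol and uses no measured value, but it was set with earlier results of these data known. Of the 54, 51 had a mean normalized count of at least 10 and were tested.

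Organoids are cultured epithelial structures grown from isolated crypts, here in medium with B27, WNT3A, EGF, Noggin and R-spondin 1. All 6 libraries carried the genotype Prkcif/fPrkczf/f;Villin-CreERT2 on the C57BL/6 strain, and the labels give an age of 8 weeks. In this genotype the genes of both atypical protein kinases C (aPKC), Prkci and Prkcz, are flanked by loxP sites, and the Villin promoter drives a tamoxifen-dependent Cre recombinase in intestinal epithelium. The 3 libraries labelled wild type were organoids given vehicle (ethanol), and they carry the same floxed alleles and the same Cre as the 3 libraries labelled Prkci/Prkz-DKO, which were given 4-OHT. No library with 4-OHT but without Cre or without floxed alleles was analysed here, so loss of the kinases, Cre activity and 4-OHT itself cannot be told apart. Nothing says whether the 3 libraries of a group came from separate animals or cultures, so the p-values measure the spread between these libraries, which may be technical.

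NRF2 is a transcription factor that KEAP1 holds in the cytoplasm and presents to a CUL3 ubiquitin ligase for degradation. Oxidants and electrophiles modify KEAP1, NRF2 then accumulates as protein, pairs with a small MAF protein and binds antioxidant response elements in front of its targets. Those targets make glutathione and NADPH, reduce quinones and carbonyls, break down heme and store iron. Glutathione peroxidases and peroxiredoxins remove peroxides with electrons from glutathione or thioredoxin, and glutathione transferases attach glutathione to electrophiles. Since NRF2 is controlled mainly as a protein, the RNA level of Nfe2l2 is not a measure of its activity.

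The core of the antioxidant response element, TGACNNNGC on either strand, was looked up in RefSeq promoter windows from 250 bases before to 50 bases after each start site (mouse build GRCm38.p6, which is not the build named in the submitters' processing notes). A window was matched for 44 of the 54 genes. The core was present for 6 of 13 NRF2 targets (46.2%), 2 of 9 peroxide enzymes (22.2%), 3 of 20 glutathione transferases (15.0%) and 1 of the 2 regulators, against 17.0% of the 10059 tested genes with a window. A match is a description of the letters, not a sign of binding, and response elements further from the start would not be seen. Of all genes tested, 43.6% were called, 22.7% as higher and 21.0% as lower. Of the 12 genes with a match, 4 rose with 4-OHT, 3 fell and 5 did not pass the test. The sites of those 7 are shown because they sit beside genes that moved in opposite directions. Each is written 5′ to 3′ in the direction of the core, which is in capitals.
Nfe2l2: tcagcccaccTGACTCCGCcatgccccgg, chr2:75704885-75704913, minus strand, beside a gene that rose.
Me1: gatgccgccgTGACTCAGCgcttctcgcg, chr9:86695902-86695930, minus strand, beside a gene that rose.
Prdx1: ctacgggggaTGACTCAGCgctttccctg, chr4:116685456-116685484, minus strand, beside a gene that rose.
Gstm5: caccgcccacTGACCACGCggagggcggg, chr3:107895802-107895830, plus strand, beside a gene that rose.
Gclm: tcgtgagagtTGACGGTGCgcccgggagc, chr3:122245413-122245441, minus strand, beside a gene that fell.
Txnrd1: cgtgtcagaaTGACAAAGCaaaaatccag, chr10:82859104-82859132, minus strand, beside a gene that fell.
Gsta3: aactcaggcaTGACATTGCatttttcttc, chr1:21240454-21240482, plus strand, beside a gene that fell.
Me1 and Prdx1 held the same core, and both rose. Other shared cores did not go with a shared call. Gsta3 had the core of Pgd, Txnrd1 that of Gstm7 and Gstm5 that of Sod1, and Pgd, Gstm7 and Sod1 did not pass.

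The files gave 15804709 to 26957612 reads per library. Prkcz fell from 880, 904 and 954 normalized counts in the vehicle libraries to 287, 265 and 290 with 4-OHT, while Prkci fell from 3603, 3526 and 3430 to 2869, 3105 and 3089. The ratio of the group means was 0.308 for Prkcz and 0.858 for Prkci, and reads along each gene, among them those of the floxed exons, were not analysed here. All 6 epithelial markers were high in every library, with summed levels of 19900 to 20400 RPM (reads scaled by the library total) with vehicle and 25900 to 27500 with 4-OHT. The 9 colon markers summed to 816 to 907 RPM with vehicle and 879 to 989 with 4-OHT, led by Car1, Cdx2 and Muc2, while Aqp8, Hoxb13 and Car4 had at most 50 reads in any library. A list of 15 genes of small-intestinal and Paneth cells had a summed level of 6.62 to 8.27 RPM with vehicle, 9.29 in 4-OHT library 1, and 48.3 and 46.0 in 4-OHT libraries 2 and 3. The sum was carried by a part of the list. The Paneth cell defensins Defa22 and Defa30 had 0 reads in all vehicle libraries and in 4-OHT library 1, against 88 and 78 in 4-OHT library 2 and 28 and 117 in 4-OHT library 3. Fabp6 of the same list had 4, 120 and 34 reads in 4-OHT libraries 1, 2 and 3. Apoa1 had 1, 99 and 74 reads there, and Sis 3, 21 and 41. The vehicle libraries had at most 7 reads of each. Fabp2 was higher in every 4-OHT library, with 111.6, 154.4 and 111.6 normalized counts against 49.45, 60.3 and 53.27 with vehicle. Apoa4, Apoc3 and Lct had at most 7 reads in any library. Gata4 went the other way, with 1 and 3 reads in 4-OHT libraries 2 and 3 and 8 to 14 in the others. Of the markers of other cell types, 6 of fibroblasts reached 9.71 RPM in 4-OHT library 3 and at most 1.08 elsewhere, and 5 of smooth muscle reached 2.81 and 5.57 in 4-OHT libraries 2 and 3 and at most 0.571 elsewhere. The 8 leukocyte markers summed to 6.80 to 18.6 RPM, most of it Cd68 in the vehicle libraries and in 4-OHT library 1. Plasma cell RNA appeared in 4-OHT libraries 2 and 3, with 135 and 40 reads of Igha, 39 and 15 of Igkc and 30 and 7 of Jchain, where the vehicle libraries had 0 of each and 4-OHT library 1 had 1 of Igha. The 3 endothelial markers summed to at most 0.454 RPM in any library. The 6 proliferation markers summed to 1570 to 1670 RPM with vehicle and to 823 to 938 with 4-OHT. In bulk RNA, fewer cells of a type and less RNA per cell cannot be told apart, and the part of these differences in the results that follow was not tested.

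Among the 51 tested genes, 17 rose, 13 fell and 21 did not pass an adjusted p of 0.05 (limma with Benjamini-Hochberg adjustment over 13210 genes). That is 58.8% called, where 43.6% of all genes tested were called, 22.7% as higher and 21.0% as lower. The changes were small. The median log2 fold change of the set was -0.02, against -0.01 over all genes tested. Only 4 genes passed with a change over 0.5 on the log2 scale, as 14.2% of all genes tested did. Of these Gpx1 and Prdx5 rose, as 6.68% of all genes did by that much, and Cbr3 and Gsta3 fell, as 7.51% did. The 3 families differed in their counts. NRF2 targets had 5 rises and 8 falls, peroxide enzymes 6 rises and 2 falls, and glutathione transferases 5 rises and 2 falls with 14 of 21 not past the threshold. No test of a difference between these families was made.

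**Figure D1:**
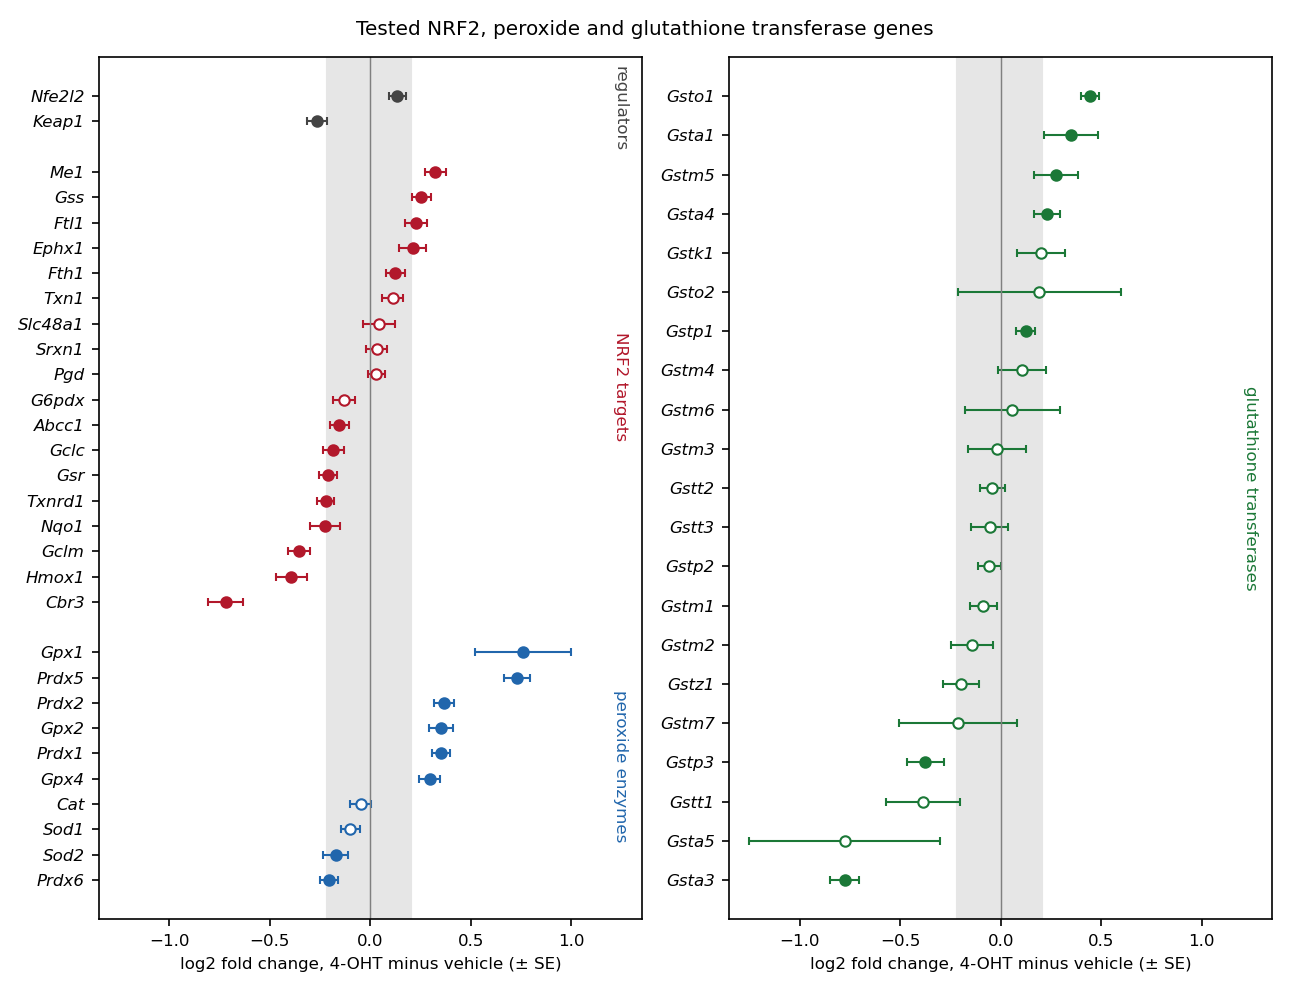
Log2 fold change (4-OHT minus vehicle, points, with SE as bars) of the 51 tested genes, by family. Filled points passed an adjusted p of 0.05, open points did not, and the grey band holds the middle of all genes tested, from -0.22 to 0.20 (25th to 75th percentile). Most NRF2 targets sit within or below the band, 6 of the 10 peroxide enzymes sit above it, and the transferases spread around 0 with Gsto1 highest and Gsta3 lowest.

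The regulators moved in opposite directions and by little. Nfe2l2 had 4197, 4031 and 4184 normalized counts with vehicle and 4659, 4435 and 4521 with 4-OHT, up by 0.13 on the log2 scale (SE 0.04, limma adjusted p = 0.018). Keap1, whose product marks NRF2 for degradation, had 1627, 1656 and 1649 with vehicle and 1385, 1345 and 1374 with 4-OHT, a log2 fold change of -0.27 with an SE of 0.05 (limma adjusted p = 0.00028). The 2 groups of libraries did not overlap for either gene, as for 52.1% of all genes tested. The call of Nfe2l2 was lost without vehicle library 2 (0.12, limma adjusted p = 0.099), without 4-OHT library 1 (0.11, limma adjusted p = 0.062) and with quantile normalization (0.06, limma adjusted p = 0.25), and that of Keap1 held in all 16 alternative settings. Exons of Keap1 overlap those of Gm16754 on the opposite strand, which had a mean of 31.9 normalized counts, and whether the counting used strand is not given in the sources used here.

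The enzymes that make and recycle glutathione changed in both directions. Both subunits of glutamate-cysteine ligase, the rate-limiting enzyme of glutathione synthesis, fell. For the modifier subunit Gclm the libraries had 2159, 2018 and 2027 normalized counts with vehicle and 1529, 1633 and 1687 with 4-OHT. This was a log2 fold change of -0.36 with an SE of 0.05 (limma adjusted p = 2.1e-05), and the groups lay well apart. The catalytic subunit Gclc went from a mean of 2832 ± 171 normalized counts (SD, n = 3) to 2491 ± 70.7, a change of -0.18 that was lost without vehicle library 1 (-0.14, limma adjusted p = 0.065). Glutathione reductase, Gsr, which returns oxidized glutathione to its reduced form, fell by 0.21 on the log2 scale. Glutathione synthetase, Gss, which completes the molecule, rose from 3217 ± 141 to 3837 ± 163 (log2 fold change 0.25, SE 0.05). Exons of Gss overlap those of Acss2 on the opposite strand, whose row changed by -0.56.

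Of the thioredoxin system, which reduces peroxiredoxins and other proteins, thioredoxin reductase Txnrd1 fell from 11400 ± 299 to 9778 ± 327 normalized counts (log2 fold change -0.22, SE 0.04). Thioredoxin Txn1 and sulfiredoxin Srxn1, which repairs over-oxidized peroxiredoxins, did not pass, with log2 differences of 0.11 and 0.03 that turned to -0.02 and -0.01 with quantile normalization. The call of Txn1 was gained without vehicle library 3 (0.17, limma adjusted p = 0.01) or 4-OHT library 3 (0.15, limma adjusted p = 0.044). Of the 3 suppliers of NADPH, malic enzyme Me1 rose from 1578 ± 58.0 to 1975 ± 87.4 normalized counts (log2 fold change 0.32, SE 0.05). The pentose phosphate dehydrogenases did not pass. G6pdx had a log2 difference of -0.13 (limma adjusted p = 0.051) that passed in 7 of 16 alternative settings, among them edgeR (adjusted p = 0.045), TMM (limma adjusted p = 0.048) and quantile normalization (-0.18, limma adjusted p = 0.012), and the removal of vehicle library 1 (-0.17) or 4-OHT library 1 (-0.17). Exons of G6pdx overlap those of Ikbkg (mean 1550) on the opposite strand. Pgd had a log2 difference of 0.03 that was -0.07 with quantile normalization.

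The largest fall among the NRF2 targets was that of Cbr3, a carbonyl reductase. It had 506, 476 and 506 normalized counts in the vehicle libraries and 315, 276 and 312 in the 4-OHT libraries, a log2 fold change of -0.72 with an SE of 0.09 (limma adjusted p = 1.2e-06). Every 4-OHT value lay far under every vehicle value, and the call held in all 16 alternative settings, between -0.76 and -0.65. The quinone reductase Nqo1, often used as a readout of NRF2, went from 772 ± 40.9 to 661 ± 64.7 with overlapping libraries. Its fall of 0.23 on the log2 scale was lost without vehicle library 2 (-0.20), vehicle library 3 (-0.21), 4-OHT library 2 (-0.17) or 4-OHT library 3 (-0.21). Abcc1, an exporter of glutathione conjugates, fell by 0.16, and that call was lost without vehicle library 1 (-0.13), vehicle library 2 (-0.14) or 4-OHT library 2 (-0.13). Microsomal epoxide hydrolase, Ephx1, rose by 0.21, with the call lost without vehicle library 2 (0.18) or 4-OHT library 1 (0.14).

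Heme and iron genes moved apart. Hmox1, which breaks heme down and releases its iron, fell, with 1611, 1557 and 1344 normalized counts with vehicle and 1032, 1282 and 1125 with 4-OHT (log2 fold change -0.39, SE 0.08, limma adjusted p = 0.00029). Its highest 4-OHT library lay just under its lowest vehicle library. Both ferritin chains, which store iron, rose. The light chain Ftl1 went from 3262 ± 159 to 3821 ± 268 normalized counts (log2 fold change 0.23, SE 0.05), and 78.9% of its 50-base words also occur in other annotated transcripts, Ftl1-ps1 among them, so its row is uncertain. The heavy chain Fth1 rose by 0.12 (SE 0.05, limma adjusted p = 0.04), a call lost in 9 of 16 alternative settings, including the removal of any 1 library except 4-OHT library 1 (0.08 to 0.13). Its value was 0.02 with 4-OHT library 1 alone against the vehicle group. The heme transporter Slc48a1 did not pass, with a log2 difference of 0.04 that was -0.04 without vehicle library 2 and -0.01 without 4-OHT library 3, and its exons overlap those of Hdac7 (mean 684) on the opposite strand. Across all 18 NRF2 targets the median log2 fold change was -0.05. Their summed level of 79010 to 80720 normalized counts with vehicle overlapped the 78110 to 80920 with 4-OHT. Most of that sum came from Txn1, Pgd, Txnrd1 and Fth1, with vehicle means of 14510, 14320, 11400 and 8022. The sum therefore says little of the other targets.

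**Figure D2:**
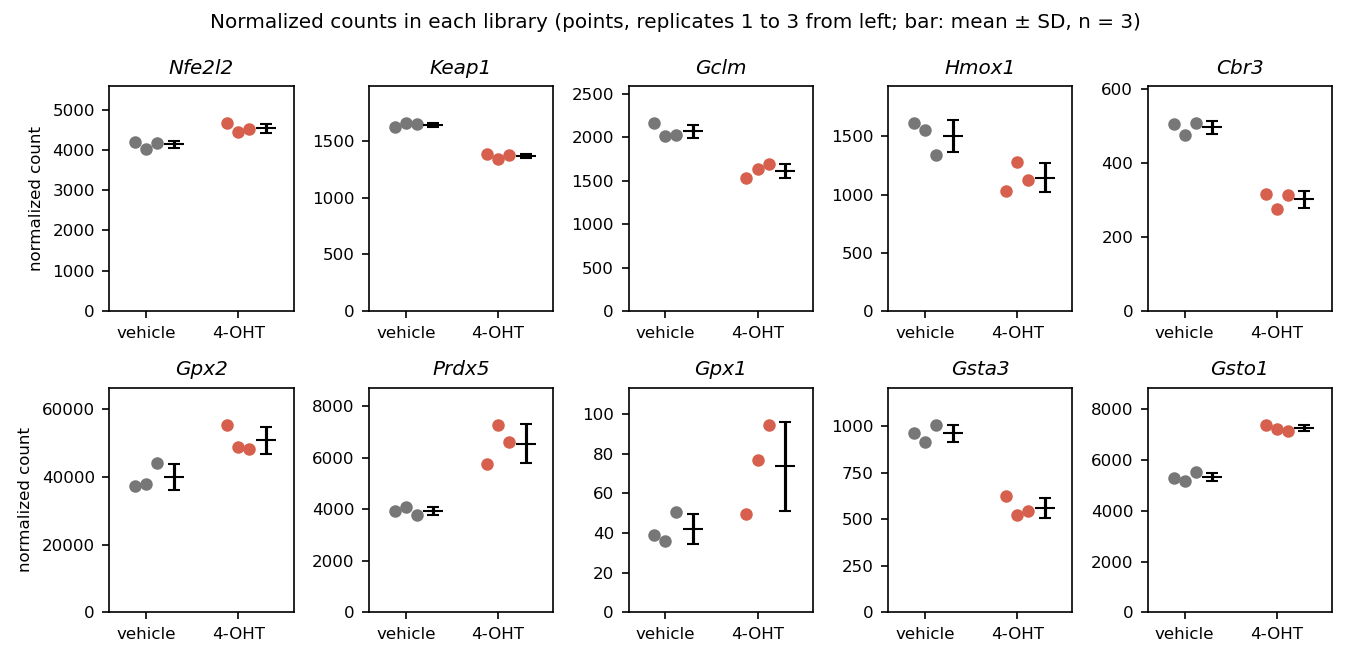
Normalized counts of 10 genes in each library (grey, vehicle; red, 4-OHT; each axis starts at 0), with the mean and SD of the 3 libraries of a group as a bar. Gclm, Hmox1, Cbr3 and Gsta3 are lower in every 4-OHT library and Gpx2, Prdx5 and Gsto1 higher, while the Gpx1 libraries overlap, at 50.8 in vehicle library 3 and 49.6 in 4-OHT library 1.

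Of the 10 peroxide enzymes, 6 rose and 2 fell (80% called, beside 43.6% of all genes tested). Their median log2 fold change was 0.32, or 0.18 with quantile normalization, beside -0.01 over all genes tested. The 3 glutathione peroxidases rose. Gpx2, the gastrointestinal form and per length the most abundant gene of the set, had 37400, 38010 and 44310 normalized counts with vehicle and 55400, 48860 and 48240 with 4-OHT, a log2 fold change of 0.35 with an SE of 0.06 (limma adjusted p = 0.00011). The groups did not overlap, but with quantile normalization the value was 0.12 (limma adjusted p = 0.13). Gpx4, which reduces lipid peroxides in membranes and is known as the guard against ferroptosis, rose from 3134 ± 132 to 3846 ± 240 normalized counts (log2 fold change 0.29, SE 0.05). Its row is uncertain, since 61.7% of its 50-base words also occur in other transcripts, mainly Gpx4-ps2.

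Gpx1, the widespread cytosolic glutathione peroxidase, had the largest rise among the tested members, on few reads. It had 39.2, 36.2 and 50.8 normalized counts with vehicle and 49.6, 76.7 and 94.5 with 4-OHT, a log2 fold change of 0.76 with an SE of 0.24 (limma adjusted p = 0.014). These rest on 42 to 83 reads per library, and the groups overlapped. The high values were in 4-OHT libraries 2 and 3, where Paneth cell defensins, plasma cell genes and the small-intestinal Fabp6, Apoa1 and Sis were highest. The call was lost without vehicle library 2 (0.66), 4-OHT library 2 (0.70) or 4-OHT library 3 (0.56). Without 4-OHT libraries 2 and 3 the value was 0.25 (limma adjusted p = 0.60). Per kilobase of transcript Gpx1 stood at 39.2 normalized counts in the vehicle group, Gpx4 at 3150 and Gpx2 at 37400. How the annotation and counting behind the deposited values treated Gpx1 was not tested, so its level and its rise are uncertain.

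Of the peroxiredoxins, thiol enzymes that reduce hydrogen peroxide, 3 rose and 1 fell. Prdx5, found in mitochondria, peroxisomes and cytosol, had 3925, 4072 and 3786 normalized counts with vehicle and 5736, 7264 and 6621 with 4-OHT. This was a log2 fold change of 0.73 with an SE of 0.06 (limma adjusted p = 1.6e-08), with every 4-OHT library above every vehicle library, and it held in all 16 alternative settings between 0.55 and 0.82. Exons of Prdx5 overlap those of Trmt112 on the opposite strand, whose row had a mean of 810 normalized counts and a log2 difference of -0.12 that did not pass. The cytosolic Prdx1 went from 9277 ± 422 to 11820 ± 513 normalized counts (log2 fold change 0.35, SE 0.05) and Prdx2 from 3299 ± 165 to 4249 ± 159 (0.37, SE 0.05). Exons of Prdx2 overlap Junb on the opposite strand, which was higher in level (mean 9000) and rose by 0.48, so reads of the 2 genes may not be separable. Prdx6, which takes its electrons from glutathione and not from thioredoxin, fell from 9021 ± 581 to 7812 ± 118 (log2 fold change -0.21, SE 0.05).

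Superoxide dismutases and catalase did not share the rise. Mitochondrial Sod2 fell by 0.17 on the log2 scale (SE 0.06, limma adjusted p = 0.032) with overlapping libraries, and the call was lost without vehicle library 1 (-0.14), vehicle library 3 (-0.16), 4-OHT library 1 (-0.13) or 4-OHT library 3 (-0.17). The cytosolic Sod1 had a log2 difference of -0.10 (limma adjusted p = 0.097), which passed without vehicle library 1 (-0.14) and with quantile normalization (-0.17, limma adjusted p = 0.0084), and catalase, Cat, one of -0.05. The 10 peroxide and superoxide genes summed to 72770, 74540 and 82600 normalized counts in the vehicle libraries and to 95850, 92250 and 89880 in the 4-OHT libraries, most of it Gpx2. The summed level was higher in each 4-OHT library than in any vehicle library.

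Of the 21 tested glutathione transferases, 7 passed (33.3%, beside 43.6% of all genes tested), and their median log2 fold change was -0.04. The count was 3 without vehicle library 2, and 4 without 4-OHT library 1 or 4-OHT library 2. Over all genes, 4946, 5636 and 5115 passed in these settings, against 5765 in the main comparison. Per kilobase of the longest annotated coding transcript (GENCODE vM21), 3 of them carried most of the RNA in the vehicle group, with Gstp1 at 6077 normalized counts per kilobase, Gsto1 at 4520 and Gsta4 at 3581. Gstp2 followed at 1422, then Gstm1 at 723 and Gsta3 at 661, whose vehicle libraries overlapped, and Gstp3 at 608. The lowest tested row with a length was Gsto2, at 10.1.

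**Figure D3:**
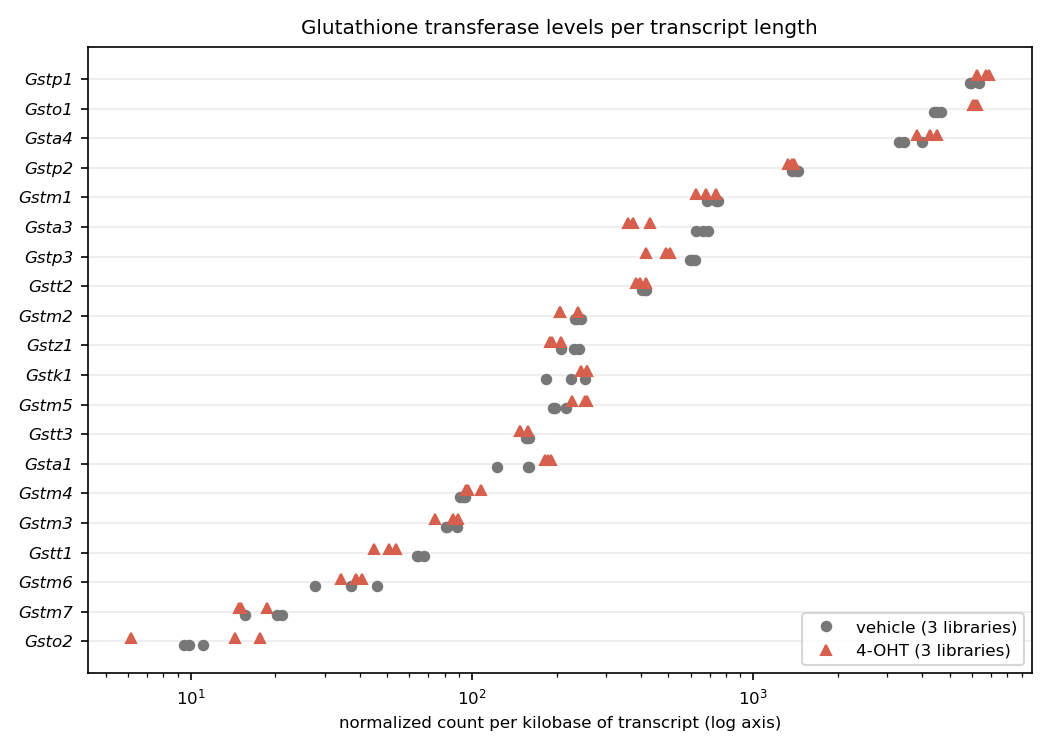
Normalized counts per kilobase of transcript (log axis) of 20 tested glutathione transferases in the 3 vehicle libraries (grey circles) and the 3 4-OHT libraries (red triangles), ordered by the vehicle mean. Gsta5 had no annotated length and is left out. Gsto1 is shifted to higher values and Gsta3 and Gstp3 to lower ones, and for most others the symbols of the 2 groups mix.

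Omega and alpha class genes held the clearest changes. Gsto1, which reduces dehydroascorbate, had 5313, 5198 and 5518 normalized counts with vehicle and 7388, 7240 and 7170 with 4-OHT, a log2 fold change of 0.44 with an SE of 0.04 (limma adjusted p = 7e-08). The groups lay far apart with little spread. Gsta3, an alpha class transferase, went the other way, from 965, 915 and 1008 to 624, 521 and 543, a log2 fold change of -0.78 with an SE of 0.07 (limma adjusted p = 6.8e-08). This was the largest fall of the set, and it held in all 16 alternative settings between -0.85 and -0.62, as did that of Gsto1 between 0.36 and 0.47. No 50-base word of the annotated transcript of either gene occurs in another transcript.

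Other alpha class genes were higher or too low to judge. Gsta4, which conjugates the lipid peroxidation product 4-hydroxynonenal, rose from 3499 ± 357 to 4101 ± 327 normalized counts with overlapping libraries (log2 fold change 0.23, SE 0.07, limma adjusted p = 0.0066), and the call was lost without vehicle library 2 (0.17). Gsta1 had 139, 108 and 139 normalized counts with vehicle and 163, 167 and 159 with 4-OHT, a log2 fold change of 0.35 with an SE of 0.14 (limma adjusted p = 0.043). That call was lost without vehicle library 2 (0.23) or any 1 of the 4-OHT libraries (0.33 to 0.37), and 89.7% of its 50-base words occur in other transcripts, so the row is uncertain. Gsta5, at 9.33, 18.4 and 10.9 with vehicle and 4.13, 9.33 and 7.97 with 4-OHT, had a log2 difference of -0.78 that did not pass (SE 0.48, limma adjusted p = 0.20). Gsta2 stayed at 1 to 9 reads per library and was not tested.

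The pi class split. Gstp3 fell from 430 ± 8.45 to 333 ± 34.4 normalized counts (log2 fold change -0.38, SE 0.09), with no overlap. Gstp1 rose by 0.12 (SE 0.05, limma adjusted p = 0.042), a call lost without either of vehicle libraries 1 (0.11) and 2 (0.10) or either of 4-OHT libraries 1 (0.09) and 2 (0.12), and Gstp2 had a log2 difference of -0.06 that did not pass. Gstp1 and Gstp2 share most of their sequence, with 62.3% and 72.6% of their 50-base words found elsewhere, so the division of reads between them is uncertain.

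Of the 7 tested mu class genes, 1 passed. Gstm5 had 187, 183 and 203 normalized counts with vehicle and 242, 238 and 215 with 4-OHT (log2 fold change 0.28, SE 0.11, limma adjusted p = 0.046), and lost the call without vehicle library 1 (0.26), vehicle library 2 (0.25), 4-OHT library 1 (0.25) or 4-OHT library 2 (0.26). Its exons overlap those of 4933431E20Rik on the opposite strand, whose mean of 151 normalized counts is near its own. The remaining 6 (Gstm1, Gstm2, Gstm3, Gstm4, Gstm6 and Gstm7) had log2 differences between -0.21 and 0.10, and Gstm2-ps1 had at most 2 reads in a library. In the theta class Gstt1 had 74.6, 70.9 and 70.2 with vehicle and 49.6, 56.0 and 59.2 with 4-OHT. Its libraries did not overlap, but the log2 difference of -0.39 did not pass (SE 0.18, limma adjusted p = 0.098). Gstt2 and Gstt3 had differences of -0.04 and -0.05, and Gstt4 had 4 reads in 4-OHT library 2 and 0 elsewhere. Gstz1 of the zeta class (-0.20), which passed without vehicle library 1 (-0.26) and whose exons overlap those of Pomt2 (mean 328) on the opposite strand, Gstk1 of the kappa class (0.20) and Gsto2 (0.19) did not pass.

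Partners of NRF2 and parts of its degradation machinery were read from a list of 12 genes, of which 11 were tested, 4 rose and 3 fell (63.6% called, beside 43.6% of all genes tested). The small MAF genes Maff and Mafk, whose proteins pair with NRF2, rose most. Maff had 825, 878 and 732 normalized counts with vehicle and 1034, 1339 and 1237 with 4-OHT (log2 fold change 0.56, SE 0.08), and Mafk went from 1266 ± 39.7 to 1747 ± 68.2 (0.46, SE 0.05). The libraries of the 2 groups were apart for both. Mafg, the third small MAF, and Bach1, which competes with NRF2 for the same elements, did not pass, with log2 differences of -0.02 and 0.05. Cul3 (0.17) and Rbx1 (0.21), the scaffold and the RING subunit of the ligase that KEAP1 serves, rose, the latter not without 4-OHT library 2 (0.14). Gsk3b (-0.19), whose kinase marks NRF2 for another ligase, Nfe2l1 (-0.14), a related factor, and the coactivator Crebbp (-0.17) fell. The call of Nfe2l1 was lost without vehicle library 2 (-0.12), and that of Crebbp without any 1 library except vehicle library 3 (-0.17 to -0.13).

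A further list of 30 known NRF2 targets had 26 tested genes, of which 9 rose and 7 fell (61.5% called, beside 43.6%), with a median log2 fold change of -0.04. The rises were led by the aldo-keto reductases Akr1c13 (0.55), Akr1b10 (0.50) and Akr1c12 (0.37), which reduce carbonyls and steroids, and by the quinone reductase Nqo2 (0.51). The falls were led by Slc7a11, the cystine importer that feeds glutathione synthesis. It had 3298, 3330 and 3046 normalized counts with vehicle and 1617, 1902 and 1870 with 4-OHT, a log2 fold change of -0.85 with an SE of 0.06 (limma adjusted p = 1.2e-09), with the groups far apart. Membrane-bound Mgst1 (-0.57), the carbonyl reductase Cbr1 (-0.27) and the glycine transporter Slc6a9 (-0.27) fell too. In the neighbouring carbonyl reductases Cbr1 and Cbr3 the direction was the same.

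Several genes that supply cysteine and glutamine fell. Of 22 genes of glutathione supply and breakdown, 18 were tested, 7 rose and 7 fell (77.8% called, beside 43.6%). Cth, which makes cysteine from cystathionine, had 1084, 1023 and 960 normalized counts with vehicle and 487, 564 and 438 with 4-OHT, a log2 fold change of -1.05 with an SE of 0.08 (limma adjusted p = 5.4e-09). Cbs, the step before it, fell by 0.67, the glutamine carrier Slc1a5 by 0.86, and Chac1, which degrades glutathione inside the cell and is known as a stress-induced gene, by 0.78. These 4 genes were named because they had the largest falls of the list that passed. For each of them all 4-OHT libraries lay below all vehicle libraries. The groups did not overlap for 52.1% of all genes tested. Slc3a2, the partner chain of Slc7a11, fell by 0.54 and was added here after its value was seen. Rises were seen for Oplah (0.73), which returns 5-oxoproline to glutamate, for the gamma-glutamyltransferase family member Ggt6 (0.36) and for Hagh (0.29), which frees glutathione in the glyoxalase pathway. The aminopeptidase Anpep had 4.67, 7.09 and 4.84 normalized counts with vehicle, 3.10 in 4-OHT library 1, and 177 and 139 in 4-OHT libraries 2 and 3. Its rise (log2 fold change 2.86, SE 0.87, limma adjusted p = 0.011) was thus present only in the libraries where Paneth cell defensins and plasma cell genes were highest. It was lost without 4-OHT library 2 (1.89) or 4-OHT library 3 (2.07), and was 4.61 without 4-OHT library 1.

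**Figure D4:**
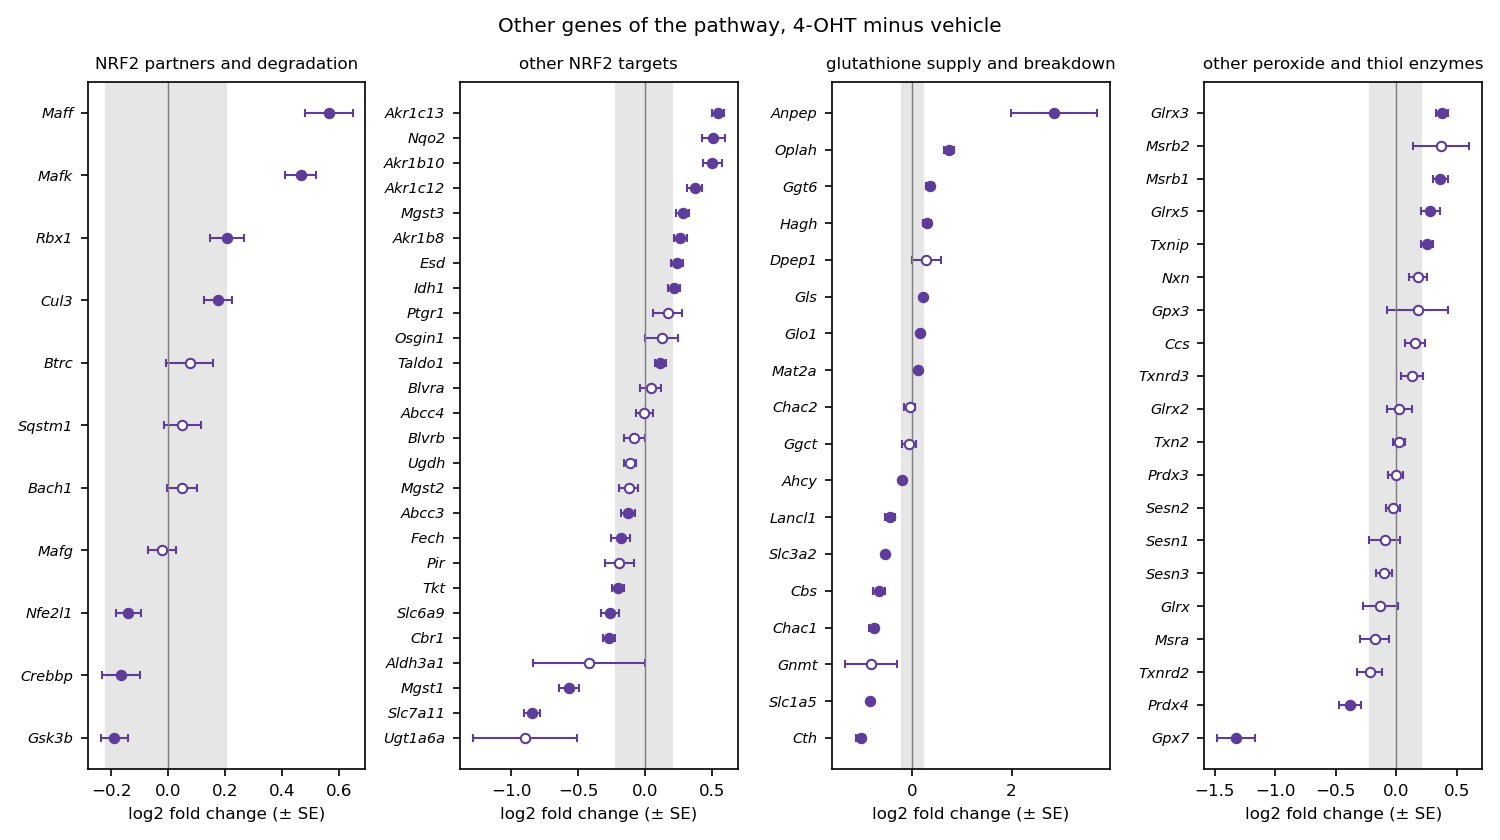
Log2 fold change (4-OHT minus vehicle, points, with SE as bars) of the tested genes of 4 further lists. Filled points passed an adjusted p of 0.05, and the grey band runs from the 25th to the 75th percentile of all genes tested, -0.22 to 0.20. Each panel has its own axis range. Slc7a11, Cth, Slc1a5, Chac1 and Gpx7 are the far low filled points, and Anpep, with the widest bar, is the far high one.

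Of 23 further peroxide and thiol enzymes, 20 were tested, 4 rose and 2 fell (30% called, beside 43.6% of all genes tested). The glutaredoxins Glrx3 (0.38) and Glrx5 (0.28), which serve iron-sulfur cluster handling, the methionine sulfoxide reductase Msrb1 (0.36) and Txnip (0.25), which binds thioredoxin, rose, with that of Glrx5 lost without 4-OHT library 3 (0.18). Both falls were in genes of the endoplasmic reticulum. Gpx7 went from 211, 181 and 180 normalized counts with vehicle to 95.1, 68.4 and 66.0 with 4-OHT, a log2 fold change of -1.32 with an SE of 0.16 (limma adjusted p = 1.1e-06), with every 4-OHT library far below the vehicle libraries. Prdx4 fell from 473 ± 55.1 to 361 ± 13.4 (log2 fold change -0.38, SE 0.09). The mitochondrial peroxiredoxin Prdx3 had a log2 difference of 0.00 and did not pass.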

How the data were processed

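RNA sequencing libraries of mouse colonic organoids (3 with vehicle, 3 with 4-OHT) were grouped by their labels. The deposited values are normalized counts, a signal for which the authors scaled the reads of a library by 1 common factor, and the submitters' processing notes name STAR, DESeq2 and the build GRCm39 (mm39), with no versions. The values are not corrected for gene length. Whole reads were recovered from the steps between values (100% whole within 0.1 reads), to 15804709 to 26957612 reads per library.

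The 13210 of 25067 rows whose mean reached 10 normalized counts were compared on log2(normalized count + 1) with limma-trend (limma 3.58.1, R 4.3.3) over all 6 libraries, with Benjamini-Hochberg adjustment over all rows tested and a threshold of 0.05. Fold changes on this scale understate those of low genes. On simulated data of 13113 genes, of which 200 were changed, limma recovered 98 of 100 genes changed by 1 on the log2 scale. It recovered 78 of 100 changed by 0.5, and 15 of its 191 calls were false. In the real data 43.6% of the tested genes were called, a setting with many changed genes that the simulation did not cover. Alternatives were pseudocounts of 0.1 and 10, no filter, a mean of at least 50, TMM, quantile normalization, the replicate number as a block, each library left out, 4-OHT libraries 2 and 3 left out together, and count models on the whole reads (DESeq2 1.42.0 and the quasi-likelihood test of edgeR 4.0.16).

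Every member is named. Values in each library are given for the regulators, for members past the threshold with a change over 0.5, and for the transferases with the 3 largest rises and falls, and of the 4 pathway lists up to 4 rises and 4 falls are named. Values in each library of Gclm, Hmox1, Gpx2 and the pathway genes, and the names Slc3a2, Mafg, Bach1, Prdx3, Ggt1 and Nnt, were added after values were seen. The members and lists were chosen with earlier results of these data known. Transcript lengths, 50-base words and exon overlaps come from GENCODE vM21 (GRCm38), another build than the authors'. Libraries of a group differed by 3.35 to 6.04 times the variance of counting (chi-square per degree of freedom), so none was a copy.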

Additional observations from a re-analysis of the deposited data

How the results depend on the processing

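Of the glutathione transferases 7 passed in the main comparison, 5 with DESeq2 and 4 without a filter on low values. With 1 library left out 3 to 7 passed, the lowest without vehicle library 2. Over all genes, 5765 of 13210 passed in the main comparison, 5208 with DESeq2 and 5526 of 23313 without the filter. With 1 library left out 4946 to 5636 of all genes passed, the lowest again without vehicle library 2. The median log2 fold change of the NRF2 targets (-0.05) was -0.125 with quantile normalization, -0.055 with edgeR and -0.079 to -0.040 with 1 library left out. That of the peroxide enzymes (0.32) was 0.178 with quantile normalization. Without 4-OHT libraries 2 and 3, which leaves 1 library assumed to vary like the vehicle libraries, 8 NRF2 targets passed (3 rose, 5 fell) and 4 of the partners and degradation genes. The medians were then -0.064 for NRF2 targets, 0.219 for peroxide enzymes and 0.003 for glutathione transferases, the last with its sign turned. With 1 library left out, 20 to 28 of the members passed, the fewest without vehicle library 2. The cause of these shifts was not tested, beyond the smaller number of libraries.

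Among the single genes named, signs turned in these alternatives only where a gene did not pass. With quantile normalization the log2 differences were -0.019 for Txn1, -0.014 for Srxn1, -0.072 for Pgd and 0.008 for Gstm3. With 1 library left out they ran from -0.035 to 0.121 for Slc48a1, from -0.073 to 0.063 for Gstm3, from -0.131 to 0.224 for Gstm6 and from -0.093 to 0.619 for Gsto2. Without 4-OHT libraries 2 and 3 they were -0.059 for Srxn1, -0.069 for Slc48a1, 0.024 for Gstm1, 0.003 for Gstm2, 0.035 for Gstm3, -0.082 for Gstm6, -0.660 for Gsto2 and 0.012 for Gstt3. Of the values of single genes under the alternatives, 1196 stayed on their side of the threshold in the same direction, 79 lost the call, 12 gained it and 18 turned.

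Same-numbered libraries did not deviate together (correlations -0.007, 0.03 and -0.02), so the replicate numbers were not taken as pairs. With the replicate number as a block, 27 of the 51 genes passed against 30 without it, and 5637 of all genes against 5765. Fth1 (limma adjusted p = 0.051), Gstm5 (0.06) and Gstp1 (0.062) lost the call, as did Crebbp (0.053) of the further genes. With DESeq2, 28 of the 51 genes passed. Gsta1 (DESeq2 adjusted p = 0.08) and Gstm5 (0.085) lost the call there, as did Crebbp (0.058) of the further genes. No scaling moved the median of all genes by 0.1 on the log2 scale. Each scaling lines up the bulk of the genes across libraries, so a shift of all genes together could not be seen. Depth limits the rows with few reads, among them Gpx1, Gstm6, Gstm7, Gsta5 and Gsto2, and Gsta2, Gstt4 and Gstm2-ps1, which were not tested.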

Other observations

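Untested genes of the pathway lists included 2 whose levels stood out. Nnt, the mitochondrial transhydrogenase that makes NADPH for glutathione and thioredoxin reduction, had 1, 4 and 4 reads with vehicle and 9, 2 and 6 with 4-OHT, in organoids whose strain label is C57BL/6 without a substrain. Ggt1, the gamma-glutamyltransferase that cleaves glutathione outside the cell, had 1, 4 and 0 reads with vehicle. It had 0 in 4-OHT library 1, and 10 and 13 in 4-OHT libraries 2 and 3. In the latter libraries Anpep, the Paneth cell defensins and the small-intestinal Fabp6, Apoa1 and Sis were high.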
